A study of Solanum lycopersicum with 8 samples.

Results

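Solyc07g006380, Solyc07g007750 and Solyc07g007760 are 3 gene IDs on tomato chromosome 7 that were grouped as plant defensin genes of floral tissue. They were selected on their TPM values in *ej2* *j2* meristems, as transcripts said to be among the most abundant there. Of the 34109 gene IDs in the expression table, 2 were members, Solyc07g006380.3 and Solyc07g007750.3. Solyc07g007760 was not analysed here. The choice rested on the same *ej2* *j2* levels that are given below, so the levels of both genes and their difference between the genotypes are descriptions and carry no test.

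Plant defensins are small, secreted, cysteine-rich proteins with a compact fold held together by disulfide bridges. Many of them inhibit fungi by acting on their membranes, and in Solanaceae a group of them is known for expression in flowers, where they are thought to protect the reproductive organs. The RefSeq gene table of tomato (assembly SLM_r2.1) names 3 such genes on chromosome 7, *TPP3*, which encodes a flower defensin, *TGAS118*, also called *DEFL2*, and *DEFL1*, where DEFL is short for defensin-like. In that table *TGAS118* and *DEFL1* are direct neighbours, with no other gene between them, and 118 protein-coding genes lie between *TPP3* and *TGAS118*. That table gives no ID of the type found in the expression data (0 entries), so neither ID was paired with a symbol, and the description of both IDs as defensin genes was not checked against an annotation.

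The data are RNA levels of proliferating inflorescence meristems, dissected from 8-week-old tomato plants of 2 double mutants, each with mutations in a pair of paralogous transcription factor genes. The *ej2* *j2* plants carry mutations in both *SEP* MADS-box paralogues (4 libraries), and the *plt3* *plt7* plants carry CRISPR–Cas9 mutations in both *PLT* paralogues (4 libraries). The labels do not name the alleles sequenced, and no WT library was used, so each level stands relative to the other double mutant only. The values are TPM (transcripts per 1000000), that is, reads per transcript length scaled to the same sum of 1000000 in each library. Read numbers cannot be recovered from this unit, and the depth behind each value is unknown.

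The libraries differed in composition within each genotype. Between 21397 and 22792 genes were above 0 TPM in each library, and the 10 highest genes held between 4.14% and 10.7% of the TPM, the most in *ej2* *j2* replicate 2. *EJ2* (Solyc03g114840.3) was at 3.67 to 15.2 TPM in *ej2* *j2*, and every *plt3* *plt7* library had it listed at 0. *PLT3* (Solyc05g051380.4) was at 1.75 to 22.5 TPM and *PLT7* (Solyc11g010710.2) at 23.3 to 73.7 TPM in *plt3* *plt7*, so RNA of the mutated genes was still present and these values do not check the genotypes. Of 7 IDs listed from general knowledge for meristems of the inflorescence, all were above 0 in *ej2* *j2*. What each of them marks was not checked, and genes of floral meristems may be among them. The list was set with earlier results of these data known. Solyc02g081670.1 was listed at 0 in every *plt3* *plt7* library (adjusted p = 0.0242, limma), which does not show that a tissue was missing. It was the only one of the 7 called, where 0.962% of all tested genes were called lower. The median log2 difference of the 7 (*plt3* *plt7* minus *ej2* *j2*) was -1.43, against 0.05 over all tested genes, 6 of them were below 0 and 3 had an unadjusted p under 0.05, as did 13.8% of all tested genes. Solyc02g077390.2, chosen after its values were seen, also had all *plt3* *plt7* libraries below all *ej2* *j2* libraries (log2 difference -2.96, adjusted p = 0.0552, limma). The summed level of these 7 IDs was 317 to 1019 TPM in *ej2* *j2* and 89.1 to 698 TPM in *plt3* *plt7*, most of it from Solyc02g081120.4 and Solyc03g118160.3.

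Solyc07g006380 was the gene with the highest mean TPM of all in *ej2* *j2* meristems and was lower in every *plt3* *plt7* library. It was at 25427, 5597, 7166 and 7430 TPM in *ej2* *j2* replicates 1 to 4 (mean 11405 ± 9383, SD, n = 4) and at 1459, 349, 2838 and 22.8 TPM in *plt3* *plt7* replicates 1 to 4 (mean 1167 ± 1272, SD, n = 4). The groups did not overlap, and the lowest *ej2* *j2* library was 1.97 times the highest *plt3* *plt7* library. *ej2* *j2* replicate 1 stood above the other libraries of its genotype, which lay close together, whereas the *plt3* *plt7* libraries were spread over a 124-fold range with replicate 4 at the bottom.

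Solyc07g007750 showed the same division at a far lower level. It was at 288, 93.4, 292 and 227 TPM in *ej2* *j2* replicates 1 to 4 (mean 225 ± 92.7, SD, n = 4) and at 4.21, 20.4, 56.2 and 0.707 TPM in *plt3* *plt7* replicates 1 to 4 (mean 20.4 ± 25.4, SD, n = 4). The groups again did not overlap, with the lowest *ej2* *j2* library at 1.66 times the highest *plt3* *plt7* library. The low *ej2* *j2* library was replicate 2, and the *plt3* *plt7* libraries covered a 79.5-fold range.

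**Figure D1:**
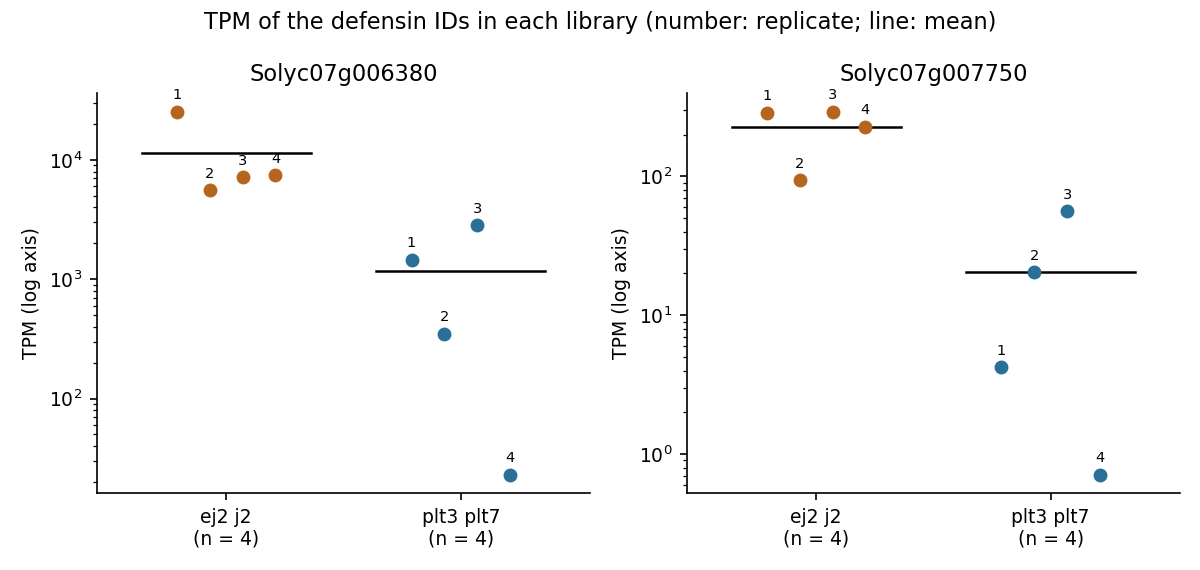
TPM of Solyc07g006380 (left) and Solyc07g007750 (right) on log axes in the 4 *ej2* *j2* and 4 *plt3* *plt7* libraries, where each point is 1 library labelled with its replicate number and each line is the mean of a genotype. All *plt3* *plt7* points lie below all *ej2* *j2* points for both genes, and *plt3* *plt7* replicate 4 is the lowest point in each panel, at 22.8 and 0.707 TPM.

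Both genes had all *plt3* *plt7* libraries below all *ej2* *j2* libraries, as did 3.00% of the 19544 tested genes. Tested genes are those with a mean of at least 1 TPM over the 8 libraries, a filter that both passed. The ratio of mean TPM was 9.77 for Solyc07g006380 and 11.0 for Solyc07g007750. On log2(TPM + 1), where the added 1 shrinks the changes of weakly expressed genes, the difference (*plt3* *plt7* minus *ej2* *j2*) was -4.44 for Solyc07g006380 and -4.34 for Solyc07g007750. Ordered from the lowest difference, these were numbers 12 and 15 of all tested genes.

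The size of the difference depended on single libraries. Without *ej2* *j2* replicate 1 the ratio of mean TPM of Solyc07g006380 was 5.77, and without *plt3* *plt7* replicate 3 it was 18.7. The log2 difference of Solyc07g006380 was -3.04 without *plt3* *plt7* replicate 4 and -5.34 without *plt3* *plt7* replicate 3. For Solyc07g007750 the ratio of mean TPM was 26.6 without *plt3* *plt7* replicate 3, and the log2 difference was -3.48 without *plt3* *plt7* replicate 4 and -5.17 without replicate 3. The standard error from limma was 0.94 for Solyc07g006380 and 0.91 for Solyc07g007750. These errors come almost entirely from the spread of other genes with similar levels, since limma joined 365 prior degrees of freedom to the 6 of each gene. From the spread of each gene's own libraries the standard error was 1.605 for Solyc07g006380 and 1.18 for Solyc07g007750.

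Both genes varied less than the median gene among *ej2* *j2* libraries and more than nearly all genes among *plt3* *plt7* libraries. The SD of log2(TPM + 1) of Solyc07g006380 was 0.98 in *ej2* *j2* and 3.06 in *plt3* *plt7*, where the median tested gene had 1.05 and 1.02. That of Solyc07g007750 was 0.77 in *ej2* *j2* and 2.23 in *plt3* *plt7*. In *plt3* *plt7*, 99.8% of tested genes had a smaller SD than Solyc07g006380 and 98.1% a smaller one than Solyc07g007750, whereas in *ej2* *j2* these shares were 44.5% and 27.4%.

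Rank within a library does not depend on the scaling of that library. Solyc07g006380 ranked 1, 5, 4 and 1 by TPM in *ej2* *j2* replicates 1 to 4 and 38, 407, 14 and 7614 in *plt3* *plt7* replicates 1 to 4. It was therefore the most abundant transcript in *ej2* *j2* replicates 1 and 4, still among the highest in *plt3* *plt7* replicates 1 and 3, and an ordinary transcript in *plt3* *plt7* replicate 4. It held 2.54%, 0.560%, 0.717% and 0.743% of the TPM in *ej2* *j2* replicates 1 to 4 and 0.146%, 0.0349%, 0.284% and 0.00228% in *plt3* *plt7* replicates 1 to 4.

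The most abundant genes otherwise changed from library to library. In *ej2* *j2*, 33 genes were among the 10 highest of at least 1 library, and Solyc07g006380 was the only one among the 10 highest of all 4. In *plt3* *plt7*, 34 genes were among the 10 highest of at least 1 library and none was in all 4. The next gene by mean TPM in *ej2* *j2*, Solyc07g053740.1 at 11185 TPM, owed its place to a single library, with 44428 TPM in replicate 2. By mean TPM, Solyc07g006380 was number 3 without *ej2* *j2* replicate 1 and number 2 without replicate 3 or 4. In *ej2* *j2* replicate 1, Solyc07g006380 was at 1.80 times the second gene, Solyc07g065840.2, and in replicate 4 it was at 1.27 times the second gene, Solyc09g061290.3. By mean TPM in *plt3* *plt7*, Solyc07g006380 was number 43, between Solyc08g074630.2 at 1173 TPM and Solyc01g111170.3 at 1152 TPM.

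Solyc07g007750 was not among the most abundant transcripts of *ej2* *j2*, which goes against the description under which it was chosen. It ranked 476, 2165, 524 and 764 in *ej2* *j2* replicates 1 to 4, within the upper 2.09% to 10.1% of the genes above 0 in each library. In *plt3* *plt7* replicates 1 to 4 it ranked 14525, 8182, 3905 and 18980, and in replicate 4 that was the position at 88.0% of the genes above 0. Its share of the TPM was at most 0.0292%, in *ej2* *j2* replicate 3. By mean TPM it was number 702 in *ej2* *j2*, between Solyc09g083080.4 at 225.4 TPM and Solyc06g076220.3 at 225.0 TPM, and number 9318 in *plt3* *plt7*, where Solyc02g088200.4 and Solyc02g084850.3 stood next to it.

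**Figure D2:**
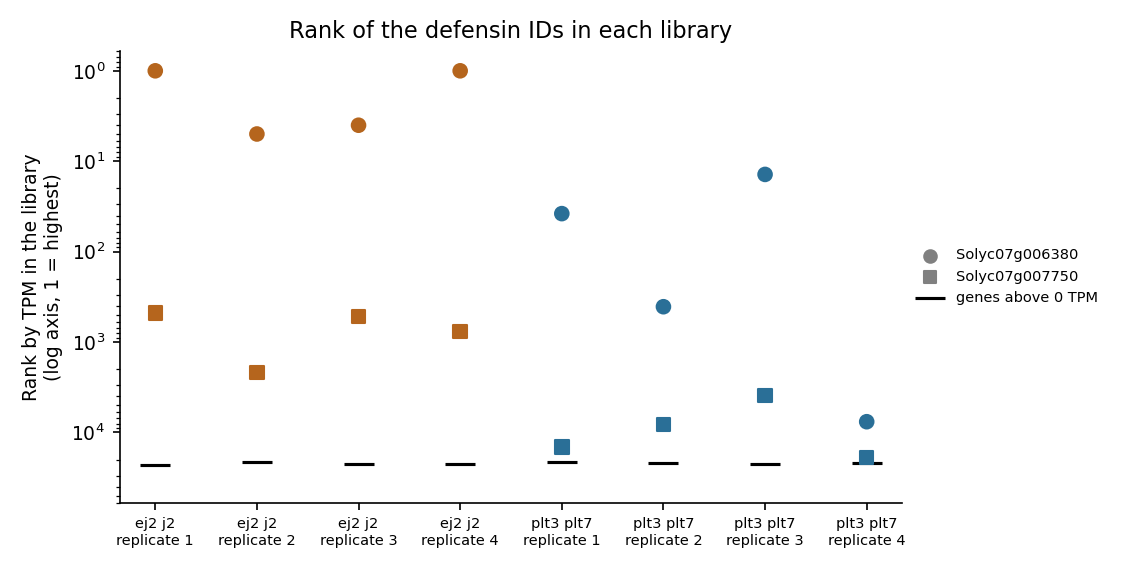
Rank by TPM of Solyc07g006380 (circles) and Solyc07g007750 (squares) in each *ej2* *j2* (orange) and *plt3* *plt7* (blue) library, on a log axis with rank 1 at the top, where black dashes give the number of genes above 0 TPM. Solyc07g006380 ranks 1 to 5 in the *ej2* *j2* libraries and 14 to 7614 in the *plt3* *plt7* libraries, and Solyc07g007750 ranks below it in every library.

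Within each library, Solyc07g006380 exceeded Solyc07g007750 by more than an order of magnitude in both genotypes. The ratio of their TPM was 88.3, 59.9, 24.5 and 32.8 in *ej2* *j2* replicates 1 to 4 and 346, 17.1, 50.4 and 32.3 in *plt3* *plt7* replicates 1 to 4. The ranges overlapped widely, with a geometric mean of 45.4 in *ej2* *j2* and 55.7 in *plt3* *plt7*. The ratio of *plt3* *plt7* replicate 1 stood apart, since in this library Solyc07g006380 was the second highest of its genotype and Solyc07g007750 the second lowest. Both genes were thus highest in *plt3* *plt7* replicate 3 and lowest in replicate 4, and took opposite places in replicates 1 and 2. The sources used here do not say how reads that match several related genes were counted, and exchange of reads between defensin genes was not tested.

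Numbers in these IDs run along the chromosome, and 145 IDs of the table lie between the 2 genes. The IDs around each gene were examined too. The windows examined held 34 other IDs, 17 around each gene, of which 21 were tested (10 and 11), and 13 stayed below 1 TPM in every library. No call was made among the 21 tested neighbours (limma, adjusted p under 0.05). Of all tested genes 1.84% were called, so a count of 0 lies near that share. An unadjusted p under 0.05 (limma) was found for 1 of the 21, or 4.76%, against 13.8% of all tested genes. None of the 21 had all *plt3* *plt7* libraries below or all above the *ej2* *j2* libraries. Of the 19544 tested genes, 586 had them all below and 757 all above. These counts do not show that the neighbours stayed unchanged. Their median difference in log2(TPM + 1) was 0.06, against 0.05 over all tested genes, and they ran from -1.003 to 1.78.

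Next to Solyc07g006380, Solyc07g006390.3 was listed at 0 in every library, and Solyc07g006395.2 reached 0.323 TPM in 1 library. On the other side, Solyc07g006370.1 had the highest difference of the neighbours, from a mean of 9.99 TPM in *ej2* *j2* to 41.4 TPM in *plt3* *plt7* (log2 difference 1.78, standard error 0.89, adjusted p = 0.350, limma), and its libraries overlapped between the genotypes. The highest *ej2* *j2* mean in this window was 40.1 TPM, for Solyc07g006400.3, of which 130.5 TPM in replicate 4 made up the most, and lay far below the 11405 TPM of Solyc07g006380. The remaining IDs of this window at 10 TPM or more were Solyc07g006300.4, Solyc07g006330.2, Solyc07g006350.3 and Solyc07g006360.1, with *ej2* *j2* means between 7.44 and 37.8 TPM and *plt3* *plt7* means between 9.40 and 43.8 TPM.

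Next to Solyc07g007750, the 5 IDs from Solyc07g007710.4 to Solyc07g007740.1 were listed at 0 or stayed below 1 TPM in all libraries. The following ID, Solyc07g007755.1, was at 110, 147, 186 and 222 TPM in *ej2* *j2* replicates 1 to 4 and at 134, 3546, 15.1 and 163 TPM in *plt3* *plt7* replicates 1 to 4. Its *ej2* *j2* levels were thus close to those of Solyc07g007750, but *plt3* *plt7* replicate 2 was by far the highest library and the genotypes overlapped (log2 difference 0.22, standard error 0.93, adjusted p = 0.957, limma). Solyc07g007780.3 had means of 48.4 TPM in *ej2* *j2* and 125 TPM in *plt3* *plt7* (adjusted p = 0.769, limma). Solyc07g007830.4 had means of 16.8 and 65.1 TPM (adjusted p = 0.577, limma). The other IDs of this window at 10 TPM or more, Solyc07g007680.4, Solyc07g007690.4, Solyc07g007700.3, Solyc07g007790.3, Solyc07g007810.3 and Solyc07g007820.3, had log2 differences between -0.61 and 0.28.

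**Figure D3:**
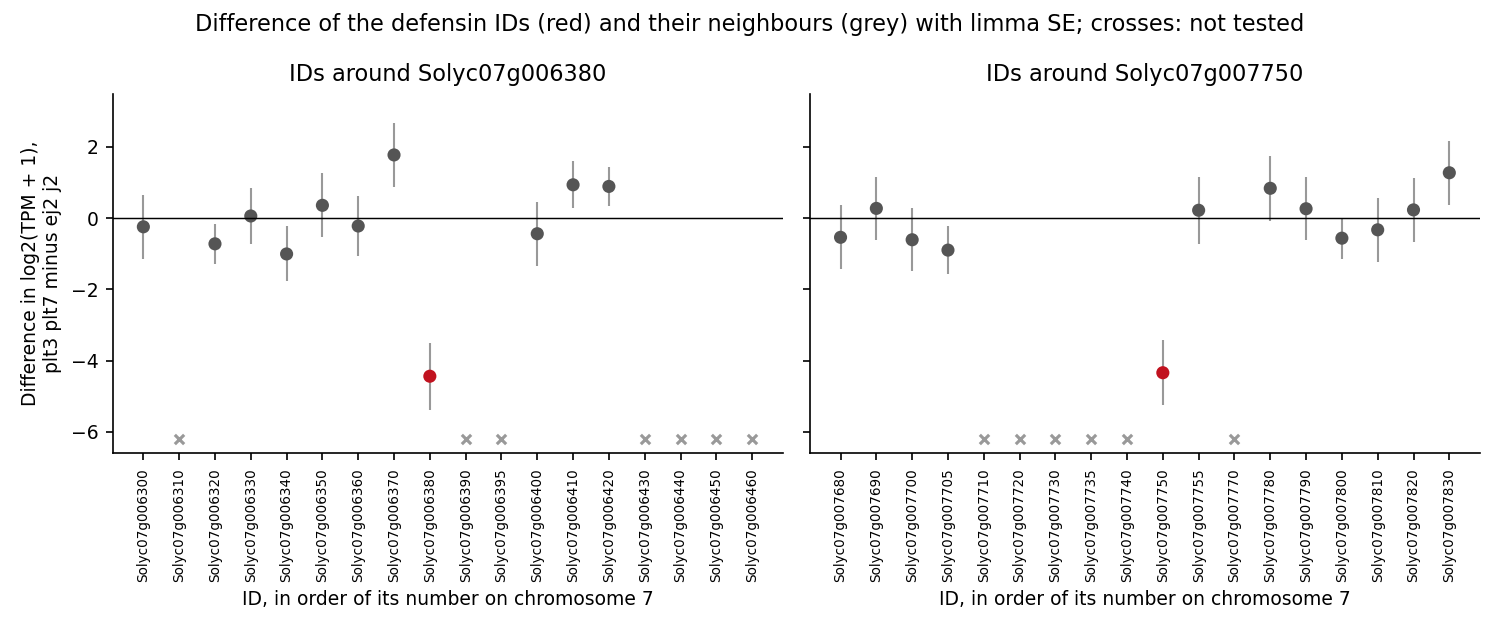
Difference in log2(TPM + 1), *plt3* *plt7* minus *ej2* *j2*, of Solyc07g006380 (left), Solyc07g007750 (right) and the IDs around them, in the order of their numbers, where points are differences and bars are limma standard errors. The defensin IDs (red) lie at -4.44 and -4.34 and the 21 tested neighbours (grey) between -1.003 and 1.78, and crosses mark IDs that were not tested and carry no value.

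With the division between the genotypes included, the profile of Solyc07g007750 was the one most like that of Solyc07g006380 among 19543 other tested genes. Profiles ran over the 8 libraries. Both genes were chosen on their *ej2* *j2* levels, so this place is a description and carries no test. Likeness was measured as the root mean square (RMS) difference between 2 profiles of log2(TPM + 1), each centred on its own mean, where smaller values are more alike. It was 1.32 for the defensin pair, against a median of 3.15 over all genes compared with Solyc07g006380. The 4 genes that followed were Solyc08g061560.3 (1.38), Solyc09g010860.4 (1.41), Solyc02g083890.4 (1.44) and Solyc04g082030.1 (1.44). Of these, Solyc08g061560.3 was the most abundant, at 305 to 4160 TPM in *ej2* *j2* and 23.9 to 489 TPM in *plt3* *plt7*. With each genotype centred on its own mean, which takes out the division between the genotypes, Solyc07g007750 was number 291 in likeness to Solyc07g006380, and with a pseudocount of 0.1 it was number 13.

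Solyc07g007750 had closer matches of its own, and Solyc07g006380 was only number 87 among them. With each genotype centred on its own mean Solyc07g006380 was number 3259, and with a pseudocount of 0.1 it was number 72. The RMS difference was 0.63 for Solyc07g007190.3, which was at 23.9 to 122.5 TPM in *ej2* *j2* and at 0 to 16.3 TPM in *plt3* *plt7*. It was 0.63 for Solyc09g010860.4, at 30.3 to 90.4 TPM and 0.124 to 11.8 TPM, the only ID among the 5 most alike of both defensin genes. Solyc07g065530.1 (0.73), Solyc04g082430.3 (0.82) and Solyc07g066050.4 (0.86) followed, and 15 genes had an RMS difference under 1.

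**Figure D4:**
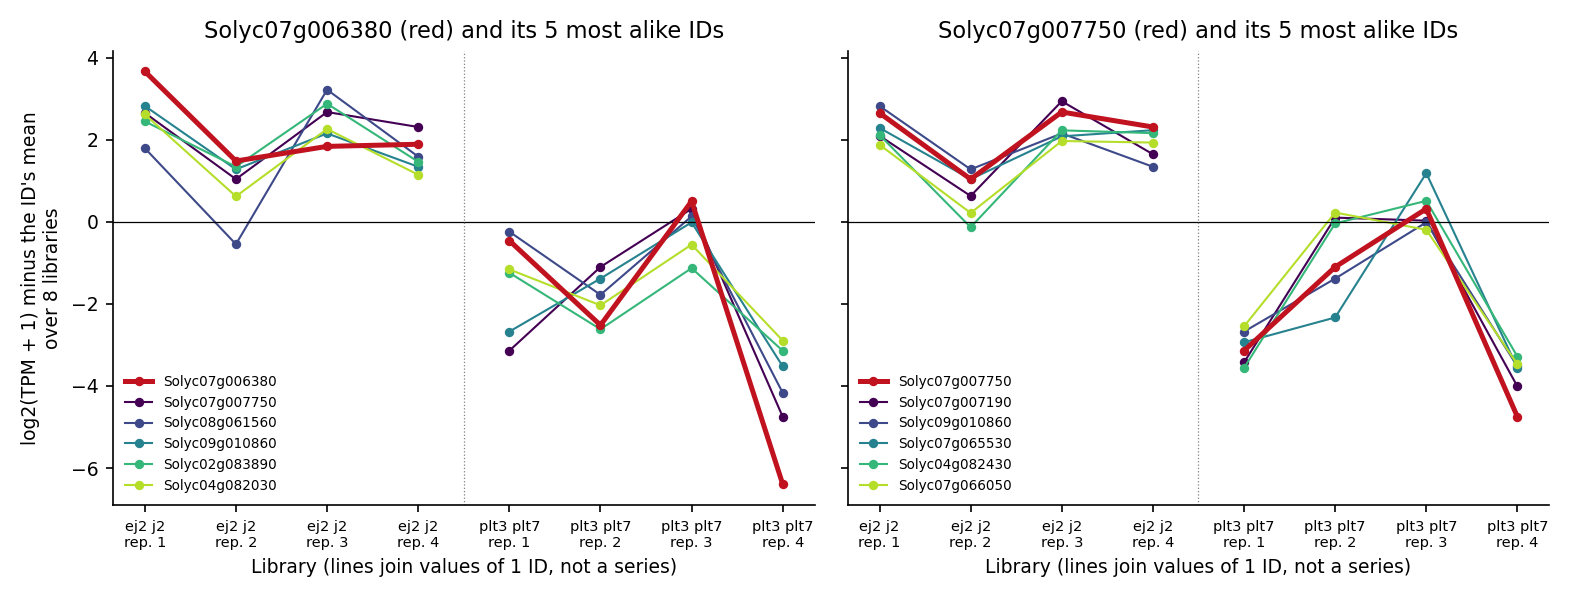
Profiles of log2(TPM + 1) over the 8 libraries, each centred on its own mean, for Solyc07g006380 (left, red) and Solyc07g007750 (right, red) and the 5 IDs most like each. Every profile has its lowest point in a *plt3* *plt7* library, and Solyc07g006380 drops further in *plt3* *plt7* replicate 4 than its 5 most alike IDs.

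Few of the other IDs that general knowledge places among tomato defensins could be compared, and no source used here pairs them with that name. Of 6 such IDs outside the windows, 3 were listed at 0 in all libraries and 2 were tested. Solyc11g028070.2 reached at most 0.521 TPM, in *ej2* *j2* replicate 4. IDs at or near 0 could not show a fall. Solyc04g074440.1 was at 35.3, 94.3, 220 and 15.6 TPM in *ej2* *j2* and at 254, 143, 60.3 and 47.0 TPM in *plt3* *plt7*. Solyc04g074450.1 was at 27.5, 53.1, 34.0 and 8.72 TPM in *ej2* *j2* and at 74.4, 114, 38.3 and 3.33 TPM in *plt3* *plt7*. Both overlapped between the genotypes, with log2 differences of 0.77 and 0.37, and neither passed the test (limma, 0 of 2 called and 0 with an unadjusted p under 0.05). Of all tested genes 1.84% were called and 13.8% had an unadjusted p under 0.05 (limma), so these counts do not set the 2 IDs apart.

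Some of the floral organ identity IDs fell in *plt3* *plt7*. All lists of IDs used here were set from general knowledge of tomato genes, with no check of what each member does. Earlier results of these data were known when the lists were set, so the choice was not blind to the data. Of 12 floral organ identity MADS-box IDs, 6 were tested, 2 fell in *plt3* *plt7* and none rose (limma), where 0.962% of all tested genes fell. The median log2 difference of the 6 was -0.36, and 5 were below 0. An unadjusted p under 0.05 (limma) was found for 3 of the 6, as for 13.8% of all tested genes. Among these 3, Solyc05g056620.2 was higher in *plt3* *plt7* (log2 difference 1.87). The 2 that fell, named after their values were seen, were Solyc02g089200.4 and Solyc05g015750.3. Solyc02g089200.4 had means of 29.0 TPM in *ej2* *j2* and 0.849 TPM in *plt3* *plt7* (adjusted p = 0.00101, limma). Solyc05g015750.3 had a mean of 12.4 TPM in *ej2* *j2* and was listed at 0 in *plt3* *plt7* (adjusted p = 0.00177, limma). The summed level of the 12 was 125 to 671 TPM in *ej2* *j2* and 296 to 815 TPM in *plt3* *plt7*, most of it from Solyc05g056620.2 and Solyc02g084630.3. In *ej2* *j2*, 4 of the 12 stayed below 1 TPM in all libraries, and in *plt3* *plt7* 8 did.

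IDs listed for anthers and pollen were at or near 0 in both genotypes. The 6 of them summed to 0.604 to 3.08 TPM in *ej2* *j2*, with 3 of them listed at 0 in every library, and to 0 to 0.754 TPM in *plt3* *plt7*, with 5 listed at 0. None reached the mean of 1 TPM needed for the test. The roles of these IDs were not checked. Whether anther or pollen tissue contributed to the Solyc07g006380 levels was not tested.

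IDs listed for the wound response overlapped between the genotypes in their sum. Of 8 listed IDs 7 were in the table, and they summed to 1226 to 6144 TPM in *ej2* *j2* and to 590 to 4169 TPM in *plt3* *plt7*. Most of this came from Solyc03g122340.3, with means of 1445 and 516 TPM, and Solyc08g074630.2, with means of 1508 and 1173 TPM, and Solyc03g020080.4 lay below 3 TPM in every library. None of the 6 tested was called (limma), where 1.84% of all tested genes were called, so a count of 0 lies near that share. The median log2 difference of the 6 was -1.44, against 0.05 over all tested genes, and 5 were below 0. For 1 (Solyc09g008670.3) all *plt3* *plt7* libraries were below all *ej2* *j2* libraries, as for 3.00% of all tested genes. An unadjusted p under 0.05 (limma) was found for 3 of the 6, against 13.8% of all tested genes. In the main fit the lowest adjusted p of the list was 0.0625, for Solyc08g074680.3 (limma). In separate alternatives, 1 ID passed with a pseudocount of 0.1, 1 without *ej2* *j2* replicate 2 and 1 without *plt3* *plt7* replicate 3. The part of wound response and meristem IDs in the difference of the defensin genes was not tested. In bulk tissue, fewer cells of a type and less RNA per cell cannot be told apart, and stage, tissue composition and genotype cannot be told apart either.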

How the data were processed

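RNA of dissected inflorescence meristems was sequenced after removal of ribosomal RNA, in 4 libraries per genotype. The authors trimmed the reads with Trimmomatic, aligned them with STAR 2.6.1 to the tomato cDNA annotation (SL4.0) and deposited TPM values. How strand and multi-mapping reads were handled was not stated in the sources used here. All 8 columns were mapped by their titles and used. The paper's plot of the mutated genes gave fewer *plt3* *plt7* samples than the 4 libraries used here, without saying which. Of 34109 genes, 8538 were at 0 in every library. TPM keeps no depth, so no counting error is given. In the main fit, p-values set a difference against the spread between libraries. Most of that spread estimate came from other genes with similar levels (365 prior degrees of freedom, against 6 of each gene).

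Genes averaging at least 1 TPM were fitted on log2(TPM + 1) with limma 3.58.1 (R 4.3.3). The test was two-sided, used eBayes with its trend option, and called a gene at a Benjamini-Hochberg adjusted p under 0.05. The procedure was tested on simulated data in which each gene had the same spread in both genotypes. The spreads of the defensin genes differed between the genotypes, so that simulation does not cover them. Python 3.11.15 (pandas 2.3.3, numpy 2.4.6, matplotlib 3.10.9) gave ranks, shares, ratios and figures. Named IDs were the members, the IDs beside them by mean TPM, the 5 most alike to each, and window IDs at 10 TPM or more in either genotype. Members and lists were chosen with earlier results of these data known.

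Alternatives were another pseudocount, other filters, 2 further scalings, TPM without the 100 most abundant other genes, a replicate block and leaving out each library. No protein or promoter sequence was used here.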

Additional observations from a re-analysis of the deposited data

Results flagged for a closer look

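Of 36 groups of 4 libraries examined (both defensin genes, their ratio and the 15 neighbours at 10 TPM or more), 9 held a library far from the other libraries of its genotype. About 5% would be set apart by chance in normally distributed data, and TPM values need not be so distributed.

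Solyc07g006380 was at 25427 TPM in *ej2* *j2* replicate 1, above 5597 to 7430 TPM in the other libraries of this genotype. The ratio of Solyc07g006380 to Solyc07g007750 was 346 in *plt3* *plt7* replicate 1, above 17.1 to 50.4 in the others.

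Among neighbours, Solyc07g007755 was at 3546 TPM in *plt3* *plt7* replicate 2, and Solyc07g007830 was at 210.5 TPM in *plt3* *plt7* replicate 3. Solyc07g006300 was at 113 TPM in *ej2* *j2* replicate 1, and Solyc07g006330 was at 37.3 TPM in *plt3* *plt7* replicate 1. Solyc07g006400 was at 130.5 TPM in *ej2* *j2* replicate 4 and at 150.03 TPM in *plt3* *plt7* replicate 1. Solyc07g006350 was low in *ej2* *j2* replicate 3, at 13.0 TPM. The libraries apart were high ones in 8 of these 9 groups.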

How the results depend on the processing

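The log2 differences of both defensin genes stayed below 0 under the alternatives. Filters and the replicate block cannot change this difference in a balanced design. Under another pseudocount and the rescalings it ran from -4.52 to -4.26 for Solyc07g006380 and from -4.69 to -4.39 for Solyc07g007750, and leaving out each library gave -5.34 to -3.04 and -5.17 to -3.48. The number of genes that differ between the genotypes (359) was 11 when no low gene was filtered out (5.84 prior degrees of freedom in limma) and 229 when a mean of 5 TPM was required, with fewer genes tested. Leaving out libraries gave 138 to 446. No neighbour and no defensin-type ID elsewhere passed under any alternative. Anther and pollen IDs were tested only without a filter (3 IDs, 0 called). The floral organ list had 2 IDs called, and 0 without a filter. The wound response list had 0 called, 1 with a pseudocount of 0.1, and 0 to 1 when leaving out libraries. The cause was not tested. With the replicate number as a block, 303 genes differed. The numbers did not pair the libraries: deviations of same-numbered libraries correlated at -0.0327, -0.00362, 0.0126 and 0.0123 over genes. The order of the most alike IDs was recomputed after seeing the data.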
